A study of Rattus norvegicus with 8 samples.

Results

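The carriers described here are the solute carriers of metal ions, phosphate, sulfate, chloride, vitamins, nucleosides and organic ions, together with the ATP-binding cassette pumps of subfamilies A, B, C and G. Members were taken by gene symbol alone: the families Slc10, Slc12, Slc13, Slc19, Slc20, Slc22, Slc23, Slc28, Slc29, Slc30, Slc31, Slc34, Slc39 and Slc41, all Slco genes, and Abca, Abcb, Abcc and Abcg genes. The rule found 119 genes in 19 families, read by 128 array features, of 21557 symbols and 22523 features on the array. An array feature is a set of beads that carry the same probe. The samples were enamel organs, the cell layers that cover forming enamel, lifted from the mandibular incisors of 4 male Wistar Hannover rats aged 4 weeks, with no treatment and no engineered allele. Every rat gave 1 secretory-stage sample, in which ameloblasts lay down enamel matrix, and 1 maturation-stage sample, in which the matrix is removed and the mineral hardens. Total RNA of each sample was hybridized to 1 RatRef-12 BeadChip array, so that 4 arrays of each stage were compared.

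Slc proteins move solutes down gradients of sodium, protons, chloride or the solute itself, whereas ABC proteins pump their substrates with energy from ATP. Enamel hardens by growth of calcium phosphate crystals, a process that needs phosphate and releases acid, and zinc is a cofactor of the metalloprotease that first cuts the enamel matrix. The sheet of ameloblasts controls which ions reach the enamel, and in the maturation stage it is backed by a papillary layer rich in blood vessels.

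The signals of an array, as deposited, summed to between 11881691 and 12046793 in the secretory stage and between 13355073 and 16122665 in the maturation stage. An array had a median of 41 to 42 beads per feature. The number of arrays limits the precision. For maturation replicates 2 to 4 the GEO field of the tissue source reads secretory, against title, description and tissue label, which were followed. The stage markers went with these, since Klk4, the protease that clears the matrix in maturation, lay between 5.14 and 6.47 in secretory arrays and between 13.12 and 13.45 in maturation arrays on the normalized log2 scale, and Mmp20, the metalloprotease of the secretory stage, lay between 10.07 and 10.31 against 5.55 to 6.96. The secretory matrix genes Amelx (log2 difference -0.53, limma adjusted p = 0.0555) and Ambn (-0.36, limma adjusted p = 0.0353, with overlapping stages) did not pass the test for a stage difference described below. Enam, which encodes a secretory matrix protein, reached 9.08 on maturation replicate 1, the highest of the 4 maturation arrays, and all 18 calls described below remained without that array. These are bulk samples, in which fewer cells of a type and less RNA per cell cannot be told apart.

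Of the 128 features, 18 passed the test, 10 of them higher and 8 lower in the maturation stage. A feature passed, and is said to have risen or fallen, when limma gave an adjusted p below 0.05 over all features of the array and the stages differed by at least 1.8-fold. The 18 features belong to 18 genes and make up 14.1% of the members, while 7.75% of all features on the array passed. The share higher in maturation was 7.81% of members and 4.60% of all features, and the share lower was 6.25% of members and 3.15% of all features; whether the members differ from other genes in this was not tested. The calls spread over 11 families, and 8 families held none. The largest rises were those of Slc34a2, a sodium-phosphate cotransporter, and Slc39a2, a zinc importer, and the largest falls those of Slco4a1 and Slc22a7, both carriers of organic anions. The split between directions depended on the processing. Of the called members, 55.6% were higher in maturation, against 59.3% of all called features. With cyclic loess in place of quantile normalization it was 58.8% of 17 members, with median scaling 77.3% of 22, and without background correction 28.6% of 7. The share over all called features was not counted under these other settings, so whether the shifts are particular to the members was not tested.

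Below the threshold of fold, the stages still often differed. An adjusted p below 0.05 at any fold was given to 45 members, 27 higher and 18 lower, which is 35.2% of the members against 26.9% of all features. By direction, 21.1% of members and 12.8% of all features were higher, and 14.1% of members and 14% of all features were lower. In 46 members (35.9%, against 27.7% of all features) the 4 arrays of a stage all lay above the 4 of the other, and the 18 called members were among them. The median log2 difference, maturation minus secretory, was -0.0121 over the members and -0.0126 over all features, and the median of its size was 0.145 and 0.118. The detection p-value compares a feature with the negative-control beads. By its threshold of 0.05 a total of 47 members were detected on no array (36.7%, against 40.0% of all features). All 8 arrays detected 54 of the 128 members and 9156 of all 22523 features. A further 7 members were detected only in maturation arrays and 4 only in secretory arrays, against 1246 and 737 of all features.

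**Figure D1:**
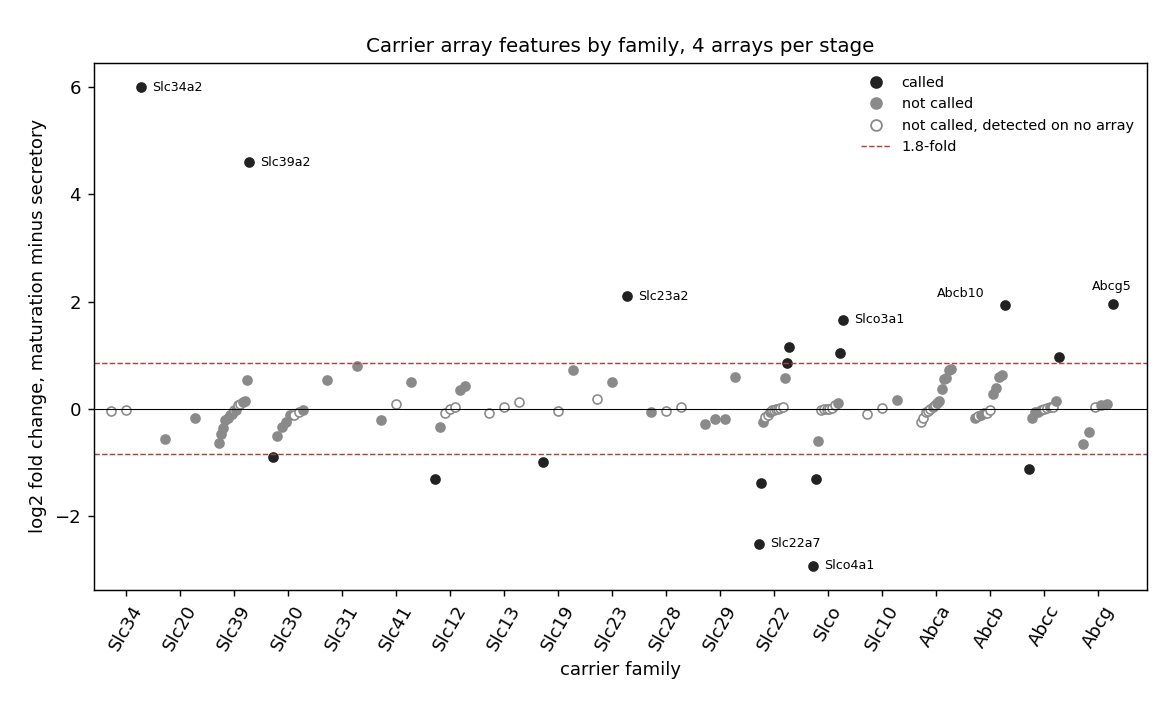
Log2 difference between the stages, maturation minus secretory, for each of the 128 carrier features, set out by family on the horizontal axis. Black points passed the test, grey points did not, open points were detected on no array, and the dashed lines stand at 1.8-fold; Slc34a2 at 6.0 and Slc39a2 at 4.60 lie farthest above 0, and Slco4a1 at -2.93 and Slc22a7 at -2.52 farthest below.

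The promoters of these 4 genes are shown because they carry the widest differences in either direction. Each run is the 250 bases before the transcription start, 5′ to 3′ on the strand of the gene, as RefSeq gives it on GRCr8. Capitals mark matches on either strand to any of 7 short motifs that were searched: the TATA box written TATAAA, the CCAAT box written CCAAT, the GC box written GGGCGG, the core of the metal response element in the forms TGCACNC and TGCGCNC, the AP-1 site written TGANTCA, and the E-box written CACGTG.
Slc34a2, chr14:62143073-62143322, minus strand: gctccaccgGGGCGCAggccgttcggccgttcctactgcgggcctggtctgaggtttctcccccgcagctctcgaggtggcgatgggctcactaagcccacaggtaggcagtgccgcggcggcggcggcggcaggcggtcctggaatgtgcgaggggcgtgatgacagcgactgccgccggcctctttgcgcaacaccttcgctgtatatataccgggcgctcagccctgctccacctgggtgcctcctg
Slc39a2, chr15:27063987-27064236, plus strand: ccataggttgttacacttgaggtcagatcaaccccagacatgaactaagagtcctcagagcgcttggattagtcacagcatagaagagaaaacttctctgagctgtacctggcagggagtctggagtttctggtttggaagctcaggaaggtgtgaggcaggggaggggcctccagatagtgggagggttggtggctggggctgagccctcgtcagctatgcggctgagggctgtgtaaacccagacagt
Slco4a1, chr3:187936632-187936881, plus strand: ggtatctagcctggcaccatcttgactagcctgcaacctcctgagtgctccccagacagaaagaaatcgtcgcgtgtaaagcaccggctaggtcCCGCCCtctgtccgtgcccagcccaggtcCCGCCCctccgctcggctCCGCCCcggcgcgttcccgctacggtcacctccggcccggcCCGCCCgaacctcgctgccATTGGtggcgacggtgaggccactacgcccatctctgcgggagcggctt
Slc22a7, chr9:22045248-22045497, plus strand: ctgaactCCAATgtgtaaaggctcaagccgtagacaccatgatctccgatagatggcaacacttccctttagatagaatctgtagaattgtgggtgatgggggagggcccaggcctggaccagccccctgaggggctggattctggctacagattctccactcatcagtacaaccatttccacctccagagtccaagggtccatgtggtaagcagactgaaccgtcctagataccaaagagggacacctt
The Slco4a1 window held 5 matches, all on the opposite strand, 4 of them GC boxes at -156, -127, -109 and -68 and the last a CCAAT box at -49, counted from the transcription start. The Slc34a2 window held the form TGCGCNC of the metal response element at -241, again on the opposite strand, and the Slc22a7 window a CCAAT box at -243 on the strand of the gene. None of the 7 motifs was in the Slc39a2 window, and no matches overlapped. Among all 33469 promoters of the same length, 30.5% held the GC box, 34% the CCAAT box, 11.8% TGCGCNC, 10.3% TGCACNC, 12.9% the TATA box, 6.34% the AP-1 site and 5.59% the E-box. Of the 16 called members with a promoter entry, 8 held the GC box, 7 the CCAAT box, 3 TGCGCNC, 2 the TATA box and 2 the AP-1 site, and none held TGCACNC or the E-box. A match is a run of letters in the window and was not tested as a binding site.

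Phosphate carriers were split by family. Slc34a2 encodes NaPi-IIb, which brings phosphate into epithelial cells together with sodium, and its normalized log2 signal was 4.96, 5.28, 5.06 and 5.33 in secretory replicates 1 to 4 and 11.16, 11.39, 10.91 and 11.18 in maturation replicates 1 to 4. The stages lay far apart, and the deposited signals, before any correction, were 113 to 123 in secretory arrays and 2081 to 3159 in maturation arrays. The rise was 64.0-fold (log2 difference 6.0, SE 0.115, limma adjusted p = 6.21e-09), and within single rats the log2 difference ran from 5.85 to 6.20. The feature was detected on 3 of 4 secretory arrays and on all 4 maturation arrays. Its relatives Slc34a1 and Slc34a3, which recover phosphate in the kidney, were detected on no array. The Slc20 carriers, which bring in phosphate with sodium in most cell types, had no member past the threshold. Slc20a2 lay at 13.18, 13.34, 13.09 and 13.12 in secretory replicates 1 to 4 and 12.76, 13.20, 13.10 and 12.99 in maturation replicates 1 to 4, and these values overlap (log2 difference -0.17, SE 0.0996, limma adjusted p = 0.288). Slc20a1, named here after its values were seen as the other member of the family, had an adjusted p of 0.00168 by limma but was lower by less than 1.8-fold (log2 difference -0.56, SE 0.0958) and ran from -0.70 to -0.37 within rats.

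Among 15 other genes of phosphate and pyrophosphate handling on the array, 3 rose and 1 fell, and the median log2 difference of the list was 0.348. The background for this and each list that follows is that of all features, of which 4.60% rose and 3.15% fell, with a median of -0.0126, and no list was tested against it. With log2 differences in parentheses, the genes that rose were Enpp1, which makes pyrophosphate outside the cell (2.08), Slc9a3r1, the scaffold NHERF1 that holds phosphate carriers at the membrane (2.02), and Xpr1, the phosphate exporter (1.36). Pyp, the cytosolic pyrophosphatase Ppa1, fell (-1.28).

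Zinc carriers comprise the Slc39 importers, which bring zinc into the cytosol, and the Slc30 exporters, which move it out of the cell or into vesicles. Together they had 23 features of 21 genes, of which 18 were detected on at least 1 array and 2 passed the test, 1 in each direction (8.70%, against 7.75% of all features). At an adjusted p below 0.05 and any fold there were 7, 2 higher and 5 lower, or 30.4% against 26.9% of all features, so that these shares lay near those of the whole array. Slc39a2, the importer ZIP2, lay at 6.52, 6.63, 6.51 and 6.04 in secretory replicates 1 to 4 and 10.94, 11.18, 10.83 and 11.15 in maturation replicates 1 to 4. The groups were again far apart, with deposited signals of 142 to 173 and 1964 to 2787. The rise was 24.2-fold (log2 difference 4.60, SE 0.133, limma adjusted p = 3.57e-08), and it ran from 4.32 to 5.10 within single rats. Slc30a7, the Golgi exporter ZnT7, lay at 8.50, 8.37, 8.50 and 8.69 in secretory replicates 1 to 4 and 7.66, 7.46, 7.67 and 7.63 in maturation replicates 1 to 4. All secretory values were the higher ones, and the fall was 1.88-fold (log2 difference -0.91, SE 0.0814, limma adjusted p = 2.66e-05). That call was lost with median scaling, with cyclic loess, with an offset of 50 and without background correction, although the log2 difference stayed below 0 in each of these.

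The other zinc carriers differed by less than 1.8-fold. Slc39a8, the importer ZIP8 of zinc and manganese, has 2 features, and the brighter lay 0.47 lower in maturation (SE 0.0621, limma adjusted p = 3.24e-04), with -0.49 to -0.45 in the 4 rats. Its second feature gave a log2 difference of -0.17 (adjusted p = 0.394). Slc30a5, the exporter ZnT5 of the secretory pathway, was 10.56 ± 0.0993 (SD, n = 4) in secretory and 10.06 ± 0.0517 (SD, n = 4) in maturation arrays on the log2 scale (limma adjusted p = 2.73e-04). The remaining features with an adjusted p below 0.05 were Slc39a10 (log2 difference -0.64), Slc39a1 (0.54) and Slc39a11, which was detected on 3 secretory arrays and no maturation array and was at least 1.14-fold lower. A second Slc39a1 feature was detected on no array and gave -0.02. Slc39a13, Slc39a6 and Slc30a6, by contrast, gave log2 differences of -0.02, -0.09 and -0.03.

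**Figure D2:**
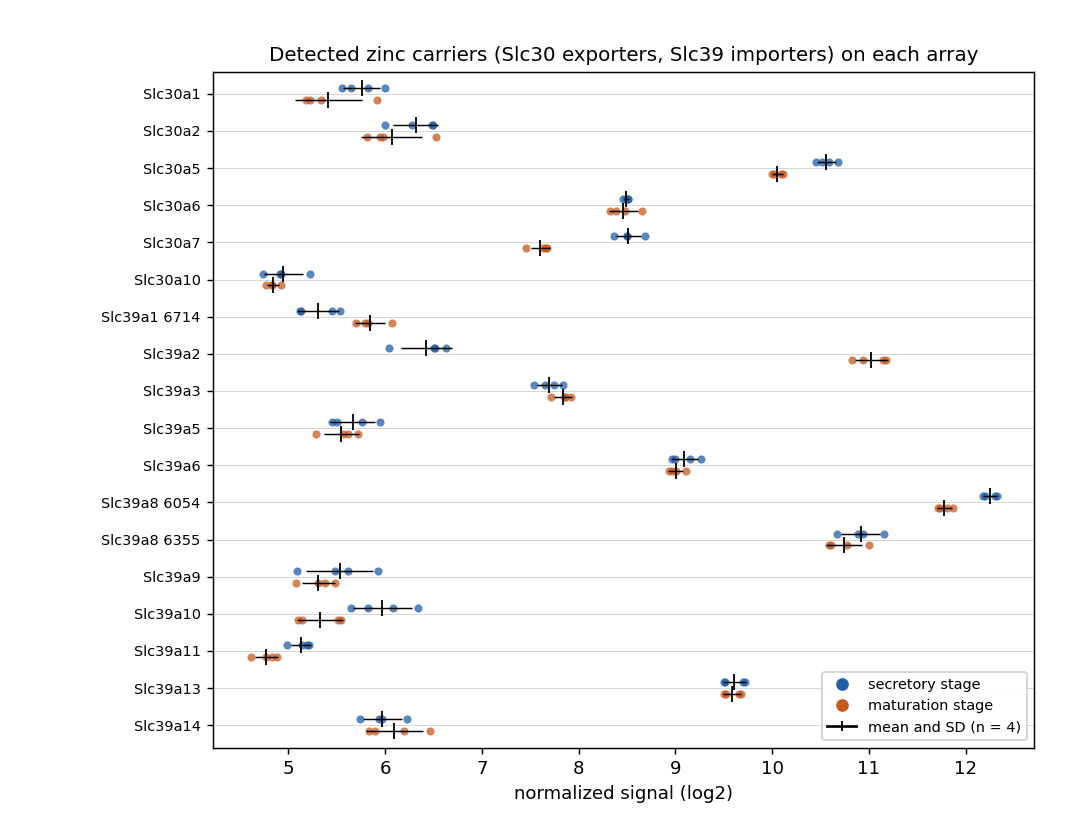
Normalized log2 signal (horizontal axis) of the zinc carrier features detected on at least 1 array, with the 4 secretory arrays in blue and the 4 maturation arrays in orange; ticks and bars give mean and SD (n = 4), and digits after a symbol tell apart features of genes that have several. Slc39a2 moves from about 6.43 to 11.02, while most other carriers keep nearby or overlapping values in the stages.

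Copper and magnesium carriers did not pass. Slc31a1, the copper importer Ctr1, gave a log2 difference of 0.53 (SE 0.0716, limma adjusted p = 3.82e-04). Slc31a2, which is thought to release copper from endosomes, was faint and detected on 1 of 4 secretory arrays, at 4.64, 4.79, 4.59 and 5.05 in secretory replicates 1 to 4 and 5.58, 5.78, 5.55 and 5.33 in maturation replicates 1 to 4. The stages did not overlap, and its log2 difference of 0.80 (SE 0.122, limma adjusted p = 8.32e-04) lay just under the threshold. It passed without secretory replicate 4 or without maturation replicate 4. Slc41a2, a magnesium carrier, gave 0.50 (SE 0.0764, limma adjusted p = 8.00e-04).

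The proteins that bind and use these metals were taken from a list of 17 zinc, copper and manganese genes with 18 features, of which 6 rose, none fell by the test, and the median log2 difference was 0.436. Metallothioneins, which bind zinc and copper, were among them, with log2 differences of 3.77 for Mt3 and 1.38 for Mt1a. Slc11a2, the proton-coupled importer DMT1 of iron and manganese, rose by 1.60 on the log2 scale, and the copper-dependent Sod1 (superoxide dismutase) and Loxl1 (a lysyl oxidase that crosslinks elastin) by 1.40 and 0.95, the latter by 1 of its 2 features, the other of which gave 0.78. Sod3, the extracellular dismutase, was detected on no secretory array and on all 4 maturation arrays, at least 1.43-fold higher. In the magnesium list of 9 genes with 10 features, Trpm6, a magnesium channel (2.02), and Cnnm2, a magnesium transporter of kidney epithelium (2.33), rose, while the median of the list was -0.185.

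Cation-chloride cotransporters of the Slc12 family set cell chloride and volume. Slc12a5, the potassium-chloride exporter KCC2 best known from neurons, lay at 6.89, 7.17, 6.93 and 6.91 in secretory replicates 1 to 4 and 5.85, 5.78, 5.37 and 5.67 in maturation replicates 1 to 4. It fell by 2.48-fold (log2 difference -1.31, SE 0.110, limma adjusted p = 1.69e-05), with no overlap between the stages. The family member with the highest mean signal, Slc12a4 or KCC1, was lower by 0.35 (SE 0.106, limma adjusted p = 0.0358). Under other processing its log2 difference drew in to as little as -0.04. Slc12a7, or KCC4, had a log2 difference of 0.43 (adjusted p = 0.0253) by its brighter feature. Its other feature was detected on no array and gave 0.03. Slc12a8 was detected on no secretory array and 2 maturation arrays, too faint for a fold. The 3 sulfate and carboxylate carriers of the Slc13 family were detected on no array.

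Of 19 genes that regulate or partner these cotransporters, with 23 features, 7 features rose and 3 fell, and the median log2 difference was 0.169. The WNK kinases, which switch the cotransporters on and off, did not move one way: Prkwnk1, now Wnk1, rose by 1.32 and Wnk4 by 0.91, and RGD1307284, now Wnk2, fell by 2.14 on the log2 scale. A second feature counted under Wnk1, labelled Hsn2, was detected on no array and gave -0.06. Sgk, now Sgk1, which acts on ion channels downstream of steroid hormones, rose by 2.07 on the same scale, and Nedd4l, the ubiquitin ligase that it inhibits, fell (-1.41). Cftr, the chloride channel gene, rose at least 4.11-fold from a stage without detection by 1 of its 2 features, and the other, detected on no array, gave -0.04. Both features of Clca2, of the calcium-activated chloride channel regulators, rose, the brighter by 2.75 and the other by at least 1.70-fold, again from below detection, whereas Tmem16a, now the calcium-activated chloride channel Ano1, fell (-1.27).

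The vitamin carriers of thiamine and ascorbate passed in opposite directions. Slc19a2, the thiamine importer, lay at 6.61, 6.54, 6.56 and 6.54 in secretory replicates 1 to 4 and 5.55, 5.78, 5.56 and 5.41 in maturation replicates 1 to 4. It fell by 1.99-fold (log2 difference -0.99, SE 0.0783, limma adjusted p = 1.19e-05), and the secretory values were all the higher ones. The reduced folate carrier Slc19a1, of the same family, gave a log2 difference of 0.72 (SE 0.0884, limma adjusted p = 2.05e-04), below the threshold. Slc23a2, the sodium-dependent ascorbate importer SVCT2, lay at 4.44, 4.67, 4.56 and 4.56 in secretory replicates 1 to 4 and 6.20, 6.67, 6.99 and 6.75 in maturation replicates 1 to 4. It was detected on no secretory array and on all 4 maturation arrays, so that its rise was at least 3.05-fold (limma adjusted p = 4.98e-06), with deposited signals of 96.8 to 108 against 192 to 224. Slc23a3, whose substrate is not ascorbate, gave 0.49 (SE 0.0754, limma adjusted p = 8.55e-04), and Slc23a1, the other ascorbate importer, was detected on no array.

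Among 21 genes of folate, thiamine, ascorbate and carnitine use, with 22 features, 1 rose and 3 fell, and the median was -0.0157. P4ha2, a collagen prolyl hydroxylase, and Plod2, a collagen lysyl hydroxylase, both of which need ascorbate, fell (-2.95 and -1.71). Ggh, which trims folate polyglutamates, fell as well (-1.38), and Tcn2, the plasma carrier of vitamin B12, rose by 1.43 (all log2 differences).

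Nucleoside carriers did not pass in either family. Slc28a2, the concentrative purine nucleoside carrier, gave -0.06 (limma adjusted p = 0.817). The equilibrative carriers Slc29a1, of the plasma membrane, and Slc29a3, of lysosomes, gave 0.59 (adjusted p = 8.05e-05) and -0.28 (adjusted p = 0.0214). The sign of Slc28a2 turned with median scaling and with cyclic loess, and that of Slc29a3 with median scaling. In a list of 13 genes of nucleoside use and salvage, Adora2b, an adenosine receptor (2.40), Upp1, a uridine phosphorylase (2.07), and Ada, adenosine deaminase (1.28), rose. Nt5e, the ectonucleotidase CD73 that makes adenosine outside the cell, fell (-1.17), and the median of the list was 0.0513.

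The Slc22 and Slco families, mostly carriers of organic ions, held 8 of the 18 calls, 4 in each, with 2 higher and 2 lower in each family. That is 26.7% of the Slc22 features and 33.3% of the Slco features, against 7.75% of all features. Of 15 Slc22 features, 7 were detected on at least 1 array. Slc22a7, the organic anion carrier OAT2, lay at 7.84, 7.51, 7.22 and 6.94 in secretory replicates 1 to 4 and 4.78, 4.80, 4.97 and 4.89 in maturation replicates 1 to 4. It fell by 5.72-fold (log2 difference -2.52, SE 0.166, limma adjusted p = 3.59e-06) and was detected on 1 of 4 maturation arrays, so that the fold is read against a stage mostly at background. Slc22a17, a receptor of the iron-binding protein lipocalin 2, lay at 10.23, 10.09, 10.12 and 10.01 in secretory replicates 1 to 4 and 9.08, 8.51, 8.62 and 8.72 in maturation replicates 1 to 4. It fell by 2.61-fold (log2 difference -1.38, SE 0.116, limma adjusted p = 1.74e-05), with no overlap.

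The members of the family that rose did so by less. Slc22a18, an imprinted gene thought to encode a carrier of organic cations, lay at 7.39, 7.38, 7.22 and 7.63 in secretory replicates 1 to 4 and 8.70, 8.41, 8.51 and 8.65 in maturation replicates 1 to 4, a rise of 2.24-fold (SE of the log2 difference 0.0982, limma adjusted p = 1.81e-05). Slc22a5, the carnitine importer OCTN2, lay at 7.42, 7.46, 7.67 and 7.37 in secretory replicates 1 to 4 and 8.12, 8.51, 8.33 and 8.39 in maturation replicates 1 to 4. Its stages did not overlap, but at 1.81-fold (log2 difference 0.86, SE 0.0976, limma adjusted p = 1.23e-04) it stood at the threshold. It lost the call without secretory replicate 1 or 4 or maturation replicate 2 or 4, with log2 differences down to 0.80. Slc22a15 gave 0.58 (adjusted p = 0.0180).

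Slco genes encode sodium-independent carriers of bile acids, steroid conjugates, prostaglandins and thyroid hormones. Of 12 features, 6 were detected on at least 1 array. Slco4a1, which carries thyroid hormone and prostaglandins, lay at 8.35, 8.37, 8.12 and 8.30 in secretory replicates 1 to 4 and 5.42, 5.34, 5.42 and 5.21 in maturation replicates 1 to 4. The deposited signals were 320 to 366 and 134 to 149, and it fell by 7.64-fold (log2 difference -2.93, SE 0.0768, limma adjusted p = 2.46e-08), with no overlap. Slco1a5, a carrier of bile acids and thyroid hormone, lay at 8.82, 8.81, 8.56 and 8.73 in secretory replicates 1 to 4 and 7.66, 7.05, 7.21 and 7.75 in maturation replicates 1 to 4. It fell by 2.48-fold (log2 difference -1.31, SE 0.153, limma adjusted p = 1.44e-04), and its maturation arrays spread more widely than its secretory arrays.

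In the other direction, Slco3a1, a carrier of prostaglandins, lay at 5.23, 4.93, 4.81 and 4.87 in secretory replicates 1 to 4 and 6.80, 6.71, 6.44 and 6.55 in maturation replicates 1 to 4. The rise was 3.17-fold (SE of the log2 difference 0.111, limma adjusted p = 3.73e-06), read against a secretory stage mostly at background, in which 1 of 4 arrays detected it. Slco2b1, a carrier of steroid sulfates, lay at 6.41, 6.36, 6.44 and 6.26 in secretory replicates 1 to 4 and 7.39, 7.41, 7.48 and 7.33 in maturation replicates 1 to 4. It rose by 2.05-fold (SE of the log2 difference 0.0615, limma adjusted p = 1.88e-06), with narrow spread in either stage. Slco5a1, whose substrates are not settled, was detected on 3 secretory arrays and no maturation array and was at least 1.30-fold lower (adjusted p = 0.00932), short of the threshold. The bile acid carriers of the Slc10 family had 3 features, of which Slc10a2 alone was detected, on 2 maturation arrays (adjusted p = 0.359).

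**Figure D3:**
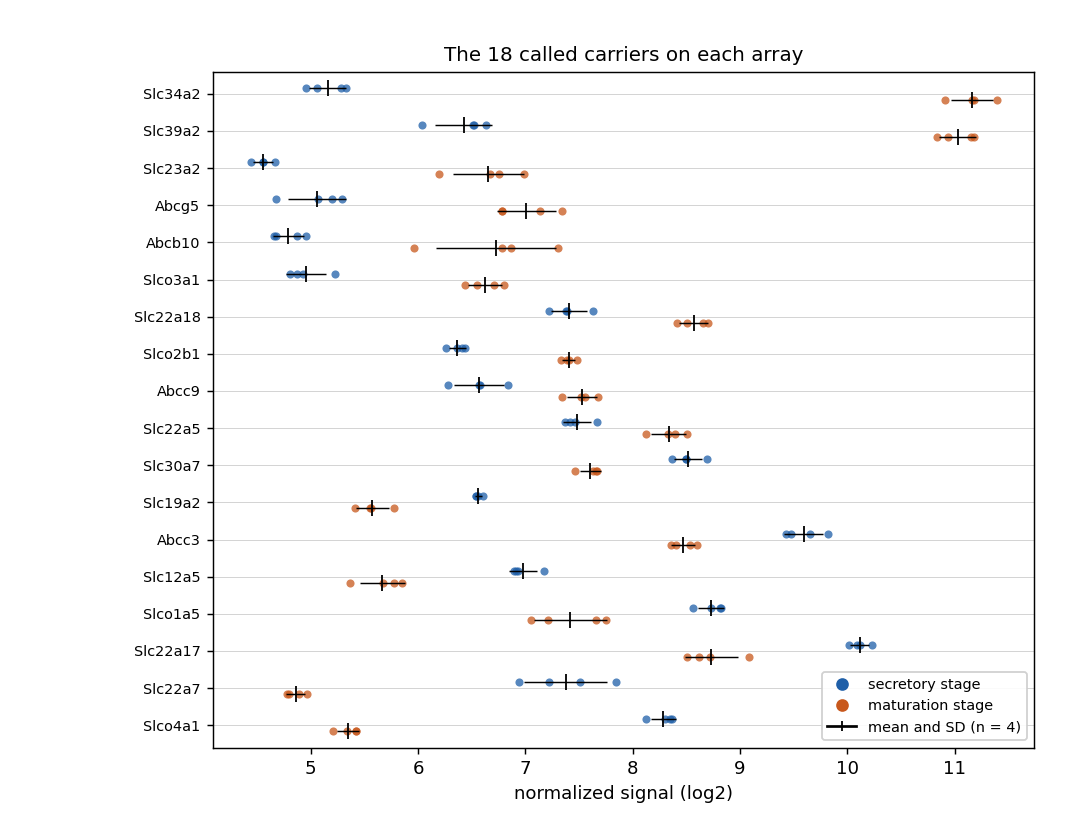
Normalized log2 signal (horizontal axis) of the 18 called carriers on each array, with the 4 secretory arrays in blue and the 4 maturation arrays in orange; ticks and bars give mean and SD (n = 4). No gene shows overlap between the stages, and Slc34a2 and Slc39a2 cover the widest distance.

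Members of the ABC subfamilies held 4 of the calls, in 3 of the 4, or 9.52% of their 42 features against 7.75% of all features. Abcg5, which together with Abcg8 exports plant sterols and cholesterol, lay at 5.20, 5.29, 5.07 and 4.68 in secretory replicates 1 to 4 and 6.78, 7.34, 7.14 and 6.78 in maturation replicates 1 to 4. It rose by 3.87-fold (SE of the log2 difference 0.163, limma adjusted p = 1.67e-05) and was detected on 3 of 4 secretory arrays. Its partner Abcg8 was detected on no array. Abcb10, a pump of the inner mitochondrial membrane that is needed for haem synthesis, lay at 4.66, 4.87, 4.96 and 4.68 in secretory replicates 1 to 4 and 5.96, 7.30, 6.78 and 6.87 in maturation replicates 1 to 4. It was detected on no secretory array and rose by at least 3.22-fold (limma adjusted p = 1.95e-04), with deposited signals of 106 to 116 against 177 to 284. A second Abcb10 feature was detected on no array and gave a log2 difference of -0.03, so that the rise rests on the brighter feature. Abcb4, the pump of phosphatidylcholine into bile, was likewise detected by its brighter feature on all 4 maturation arrays and no secretory array, at least 1.16-fold higher, and did not pass, and its other feature was detected on no array.

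The Abcc calls went in opposite directions. Abcc3, the export pump MRP3 of glucuronides and bile acids, lay at 9.65, 9.82, 9.47 and 9.43 in secretory replicates 1 to 4 and 8.40, 8.60, 8.53 and 8.36 in maturation replicates 1 to 4. It fell by 2.17-fold (log2 difference -1.12, SE 0.0974, limma adjusted p = 2.14e-05), a call that was lost with median scaling. Abcc9, the sulfonylurea receptor subunit of ATP-sensitive potassium channels in smooth muscle and pericytes, lay at 6.58, 6.57, 6.84 and 6.28 in secretory replicates 1 to 4 and 7.68, 7.34, 7.56 and 7.52 in maturation replicates 1 to 4. It rose by 1.94-fold (SE of the log2 difference 0.118, limma adjusted p = 2.10e-04), with no overlap, and lost the call with normexp without negative controls, without background correction and with an offset of 50, at log2 differences down to 0.56. Of 6 features of 5 pericyte and smooth muscle genes, 3 rose, those of Rgs5, Cspg4 and Des, while Tagln gave -0.27 (adjusted p = 0.166). The summed level of that list was 2072 to 2910 in secretory and 2409 to 2831 in maturation arrays, Myh11 gave 0.60 (limma adjusted p = 0.0123) by a feature detected on all 8 arrays while its other feature was detected on none, and the part of these cells in the Abcc9 result was not tested.

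The Abca subfamily of lipid pumps had no call among 14 features, yet 5 had an adjusted p below 0.05, and all 5 were higher in maturation. That is 35.7% of these features, against 12.8% of all features in the same direction, a difference that was not tested. They were Abca4 (log2 difference 0.74), Abca3 (0.73), Abca2 (0.55), Abca7 (0.36) and Abca8a, which was detected on no secretory array and 3 maturation arrays and was at least 1.09-fold higher. Abca3 loads phospholipid into lamellar bodies and Abca4 moves retinoid lipids in the retina. With median scaling Abca2, Abca3 and Abca4 passed, and Abca4 did so too without secretory replicate 4. Abca1, the exporter of cholesterol to apolipoproteins and the member with the highest mean signal, gave 0.14 (adjusted p = 0.327). Abcg1, a cholesterol exporter as well, was lower by 0.65 (SE 0.0991, limma adjusted p = 8.35e-04), and Abcb6, a mitochondrial and vesicular porphyrin pump, was higher by 0.59 (SE 0.0854, adjusted p = 6.00e-04).

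The receptors that switch on ABC and organic ion carriers were read by 16 features of 15 genes, of which 2 rose and none fell by the test (median 0.0841). These were Nr1h3, the sterol sensor LXR-alpha (1.13), and Nfe2l2, the factor NRF2 of the response to oxidants (1.10). Of 9 other ABC genes with 10 features, Abcd2, a peroxisomal importer of long-chain acyl-CoA, fell (-0.96, against a maturation stage detected on 1 of 4 arrays), and the median was 0.0174.

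Markers of other cell types moved between the stages as well. Of 10 macrophage and leukocyte genes with 11 features, 6 features rose, among them Cd68 (2.19) and Cd14 (1.94), and the summed level of the list was 3805 to 4550 in secretory and 9864 to 12674 in maturation arrays. Of the same list, Cd163 was detected on 2 maturation arrays and no secretory array, Itgam on 2 and 1, and a second Lcp1 feature on none. Endothelial markers had 2 rises among 8 features, Vwf and Cldn5, with sums of 5162 to 6396 and 6947 to 8808, while Cdh5 was detected on no array. Osteoclast markers had 2 rises among 4 features, Ctsk and Mmp9, with sums of 5944 to 8461 and 14667 to 18846 and Calcr detected on no array. Fibroblast markers had 1 rise among 8 features, Thy1, with sums of 69638 to 79689 and 83296 to 85410. Among odontoblast and osteoblast markers, Dspp fell from 9.33 or more to no detection and Ibsp rose, while the sums, 9015 to 23845 and 14638 to 17224, overlapped. No blood, skeletal muscle or cell cycle marker passed. The part of these cells in the carrier results was not tested.

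Not all calls held under other processing. Without background correction, calls of 11 carriers were lost, those of Abcb10, Abcc9, Abcg5, Slc12a5, Slc19a2, Slc22a5, Slc22a18, Slc23a2, Slc30a7, Slco2b1 and Slco3a1, while Slc34a2 (4.22), Slc39a2 (3.60), Slco4a1 (-1.60) and Slc22a7 (-1.12) were among the 7 that kept theirs. Abcc9, Slc19a2 and Slc22a5 were lost with normexp without negative controls, and with an offset of 50 these were lost together with Slc30a7 and Slco2b1. Median scaling ended the calls of Abcc3, Slc19a2 and Slc30a7 and added those of Abca2, Abca3, Abca4, Abcb6, Slc19a1, Slc29a1 and Slc31a1.

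**Figure D4:**
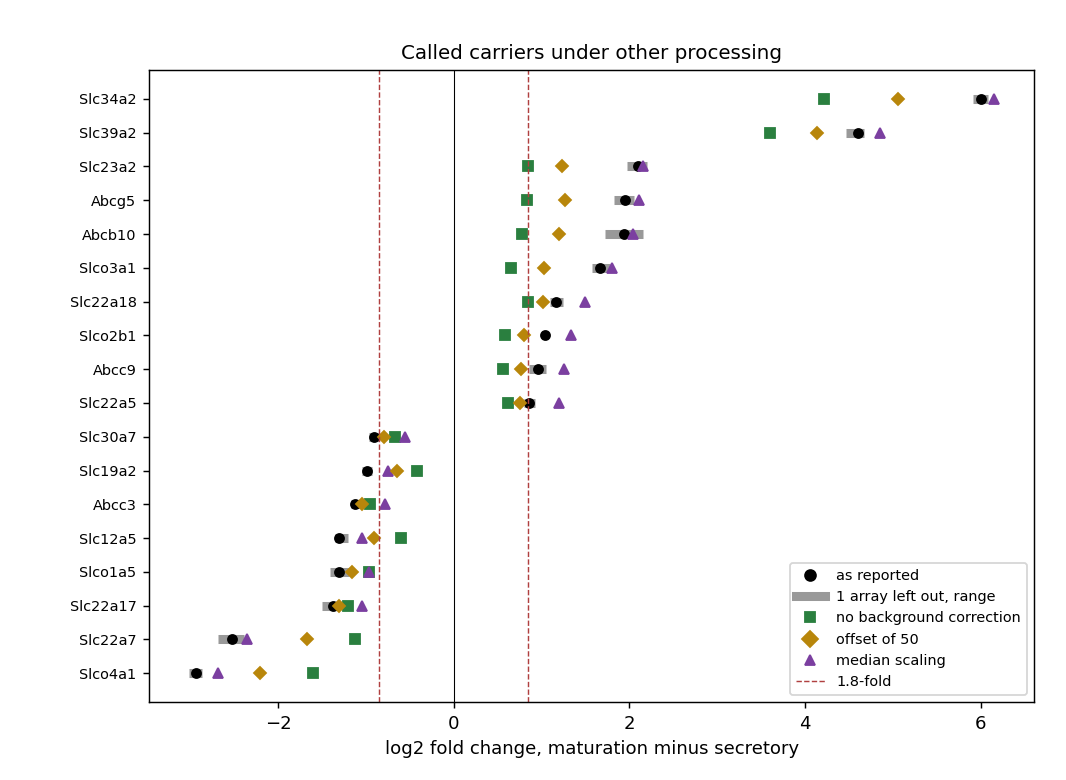
Log2 difference (horizontal axis, maturation minus secretory) of the 18 called carriers as reported, over the range with 1 array left out, without background correction, with an offset of 50 and with median scaling; dashed lines stand at 1.8-fold. Every gene keeps its side of 0 in these settings, and values draw in toward 0 without background correction, for Slc34a2 from 6.0 to 4.22 and for Slco4a1 from -2.93 to -1.60.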

How the data were processed

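Enamel organs of 4 rats, sampled at both stages, were measured on 8 RatRef-12 arrays. The authors deposited a table of mean bead intensity per probe, without background correction or scaling between arrays, and beside it a detection p-value, bead numbers and bead standard errors. Which software summarised the beads is not given in the sources used here. Stage and replicate came from the sample titles.

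Background and scale were corrected in limma 3.58.1 under R 4.3.3 (neqc, negative controls inferred from detection p-values, offset 16, quantile normalization, log2). All 22523 probes entered lmFit and eBayes without a filter, unpaired, with Benjamini-Hochberg adjustment, and calls needed an adjusted p below 0.05 and 1.8-fold. A probe was undetected in a stage if no array of that stage had a detection p below 0.05. The fold is then a lower bound, the mean of the other stage over the mean of, per array, the higher of the probe's own value and the lowest value of a detected probe, while counts use fitted folds. Log2 differences are maturation minus secretory. The summed level of a marker list adds normalized signals, on the linear scale, over its features.

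Members and lists were chosen with earlier results of these data known. Named were called members, the member of each family with the highest mean signal, further probes of these that differ in call, members within 0.1 log2 units of the fold threshold, and called genes of the lists, of which 1 is counted but not reported here. Slc20a1 and other members named without a call were added after their values were seen. For a gene with several probes, the brightest was taken. Current symbols, from a table of GRCr8, matched 17459 probes and all 128 member probes, and 4 member genes had been renamed. Promoters came from RefSeq on that assembly.

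Each rat gave both stages, and samples with the same replicate number were taken to come from the same rat. Over 11233 probes, deviations from the stage means correlated within these pairs at 0.195, 0.129, 0.219 and 0.234. Between samples of different replicate number the mean correlations were -0.0799, -0.0406, -0.07 and -0.0675. The alternatives were median scaling or cyclic loess for quantile normalization, normexp without negative controls or uncorrected signals, a larger offset (50), a detection filter, the methods' Student test, the rat as a block, an adjusted p below 0.01, and leaving out arrays in turn. Python 3.11.15 made the tables and figures.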

Additional observations from a re-analysis of the deposited data

Results flagged for a closer look

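Among 63 sets of 4 arrays examined, each of a named carrier in a stage that detected it, 2 held an array far from the other arrays of its stage by Dixon's test, where 3.15 would be flagged by chance. Slc12a5, the potassium-chloride exporter KCC2, read 7.17 on secretory replicate 2 and 6.89 to 6.93 on the other secretory arrays. Slc23a3 read 7.38 on maturation replicate 3 and 7.61 to 7.66 on the other maturation arrays.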

How the results depend on the processing

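The 18 calls (10 higher, 8 lower) were the same with a detection filter, with the Student test of the methods, at an adjusted p below 0.01, with lower bounds in place of fitted folds, and with the rat as a replicate block (18), and the number of genes called was 18 with either the brightest or the most changed probe of each gene. Leaving out 1 array gave 17 to 19 calls, 9 to 11 higher and 8 lower. Counts were 15 with normexp without negative controls, 13 with an offset of 50 and 17 with cyclic loess. Without background correction 7 were called, 2 higher and 5 lower, all of them among the 18. With median scaling 22 were called, 17 higher and 5 lower, 15 of them among the 18. The median log2 fold change of the carrier probes was -0.0121, and it was 0.0664 with the detection filter, 0.00952 with cyclic loess, -0.0751 with median scaling, -0.0121 with the block and between -0.0124 and 0.0018 with 1 array left out. The filter leaves fewer features. Over all probes of the array the median was -0.0126, and it was 0.00178 with cyclic loess and -0.0719 with median scaling. The cause of these changes was not tested.

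Signs turned for these features that did not pass the test. With 1 array left out, the second Abcb10 feature ran from -0.08 to 0.03, Slc13a2, detected on no array, from -0.16 to 0.01, and Slc28a2 from -0.14 to 0.07. Slc28a2 gave 0.01 with cyclic loess and 0.27 with median scaling, and Slc29a3 gave 0.06 with median scaling. The block changed no call of a carrier. The slide as a block was not run, since the table names no slide. Features undetected in a stage have only a bound there, which limits the folds of Slc23a2, Abcb10, Abcb4, Abca8a, Slc39a11 and Slco5a1, and the differences of Slc22a7, Slco3a1, Slc31a2 and Abcd2 are read against stages that 1 of 4 arrays detected.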
